A study of Mus musculus with 8 samples.

Results

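The genes described here encode the translation initiation factors, the proteins that bring a ribosome to the start codon of an mRNA. They were taken as every row of the deposited gene count table whose name starts with Eif and a digit from 1 to 6. The eIF2alpha kinases Eif2ak1, Eif2ak2, Eif2ak3 and Eif2ak4 and the Y-linked Eif2s3y, 5 of the 56 rows that match, were left out. That left 51 of the 31053 genes in the table. They were grouped into 11 complexes or families, with Eif2c5 on its own, since its symbol belongs to the family now called Argonaute. The genes were read in 4 libraries labelled CKO (D146, D149, D163 and D169) and 4 labelled WT (D142, D150, D154 and D164). Both groups are RNA-seq of mouse spleen conventional dendritic cells (cDCs), and both were stimulated: a preparation of about 20% dendritic cells was cultured for 9 h with 100 nM CpG-B, a DNA ligand of Toll-like receptor 9, before lineage-negative, MHC II-positive, CD11c-positive cells were sorted. The sources used here name neither the gene deleted in CKO nor the Cre line, strain, age or sex, so the deletion was not checked in the counts.

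In eukaryotes, eIF2 carries the initiator tRNA to the small ribosomal subunit as a complex with GTP, and eIF2B recharges eIF2 with GTP after each round. eIF3 is the large scaffold that holds the small subunit open for the mRNA, while eIF1, eIF1A and eIF5 control which start codon is accepted. The eIF4 proteins bind the mRNA cap and unwind the leader, and eIF5B and eIF6 act on the joining of the large subunit. Dendritic cells make large amounts of cytokines and surface proteins after Toll-like receptor stimulation, and initiation is known to be controlled at a pair of points in such cells and others: phosphorylation of eIF2alpha, and release of eIF4E from its binding proteins by mTORC1.

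Between 25304765 counts (CKO D169) and 40950088 counts (WT D150) fell on genes. The labels do not say whether each library came from a separate animal, so p-values measure the spread between these libraries, part of which may be technical. All 9 cDC markers on the list used (Flt3, Zbtb46, Itgax, H2-Ab1, Cd74, Ccr7, Batf3, Irf4 and Irf8) were present, with summed levels of 26270 to 39840 CPM (each gene's counts scaled to a common TMM-normalised library size) in CKO libraries and 32620 to 45350 CPM in WT libraries. Genes listed as markers of other cells were counted too. Whether such cells or the cDCs themselves carried these mRNAs was not tested. The 10 B cell markers, none of them at 0 in every library, summed to 86.4, 27.2, 123 and 98.1 CPM in CKO D146, D149, D163 and D169, against 25.6 to 50.2 CPM in the WT libraries. The 6 T cell markers summed to 24.3 to 54.6 CPM in CKO and 17.6 to 35.7 CPM in WT libraries. Of the 5 neutrophil markers (led by S100a8), Ly6g and Retnlg were at 0 throughout. The neutrophil list summed to 0 CPM in every CKO library and in WT D142. It was above 0 in WT D150, D154 and D164, though below the sum of every other list. NK cell markers summed to 90.5 to 236 CPM in CKO and 117 to 198 CPM in WT libraries, and macrophage and monocyte markers to 20.7 to 32.4 CPM in CKO and 28.3 to 43.4 CPM in WT libraries. The 5 plasma cell markers (led by Xbp1) overlapped as sums, at 313 to 364 CPM in CKO and 314 to 346 CPM in WT libraries, but by mean log2 CPM every CKO library (4.38, 3.97, 4.395 and 3.91) lay above every WT library (2.91, 3.48, 3.73 and 3.72). Plasmacytoid dendritic cell markers (5 genes, led by Bst2) summed to 457 to 709 CPM in CKO and 667 to 991 CPM in WT libraries, and 5 erythroid genes to 5.6 to 75.2 CPM in CKO and 53.9 to 178 CPM in WT libraries. By mean log2 CPM every CKO library lay below every WT library for the erythroid genes, at no more than 1.653 in CKO and no less than 1.655 in WT. The B cell markers were also entered in a fit as a covariate, and the part of the other lists in the results was not tested.

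Of the 51 genes, 48 were abundant enough to be tested. Eif4e1b had 0 counts in all 8 libraries, where 3 counts, the limit that a count of 0 allows by counting error alone, would be 0.0733 to 0.119 CPM. Eif4ebp3 and Eif2c5 were the other two left untested, at no more than 0.234 and 0.207 CPM in any library. The edgeR quasi-likelihood F test was run over 11702 genes, with Benjamini-Hochberg correction and a threshold of 0.05. By that test Eif2s3x, Eif3a and Eif3b, 3 of the 48, rose in CKO libraries and 0 fell. That is 6.25% of the members. Of all genes tested, 8.87% were called in either direction, 4.3% higher and 4.57% lower, so no excess over other genes is read from the members' count. At an unadjusted p under 0.05 there were 13 of the 48 members and 28.6% of all genes. DESeq2 called 5 members higher and 1 lower, where it called 16.4% of all genes with an adjusted p, 7.91% higher and 8.52% lower.

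The log2 fold change of CKO over WT was above 0 for 33 of the 48 members (68.8%) and for 53.0% of all genes tested, with medians of 0.085 for the members and 0.031 for all genes. Every CKO library lay above every WT library for 5 members (Eif2s3x, Eif3a, Eif3b, Eif2b5 and Eif5a2), where 7.85% of all genes did so, and every CKO library lay below every WT library for 1 member (Eif4a2), where 8.09% of all genes did. With total-count scaling in place of TMM, the median of all genes was 0.163 higher, at 0.194, and that of the members 0.168 higher, at 0.253. The members' median was above 0 under all 17 alternative settings, at 0.021 to 0.253. Relative to the median of all genes, it was 0.054 higher with TMM and 0.059 higher with total counts, but 0.005 higher with an offset for GC content and length; over the 17 alternative settings it was 0.005 to 0.103 higher. In bulk RNA, fewer cells of a type and less RNA per cell cannot be told apart, and this applies to each value below.

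**Figure D1:**
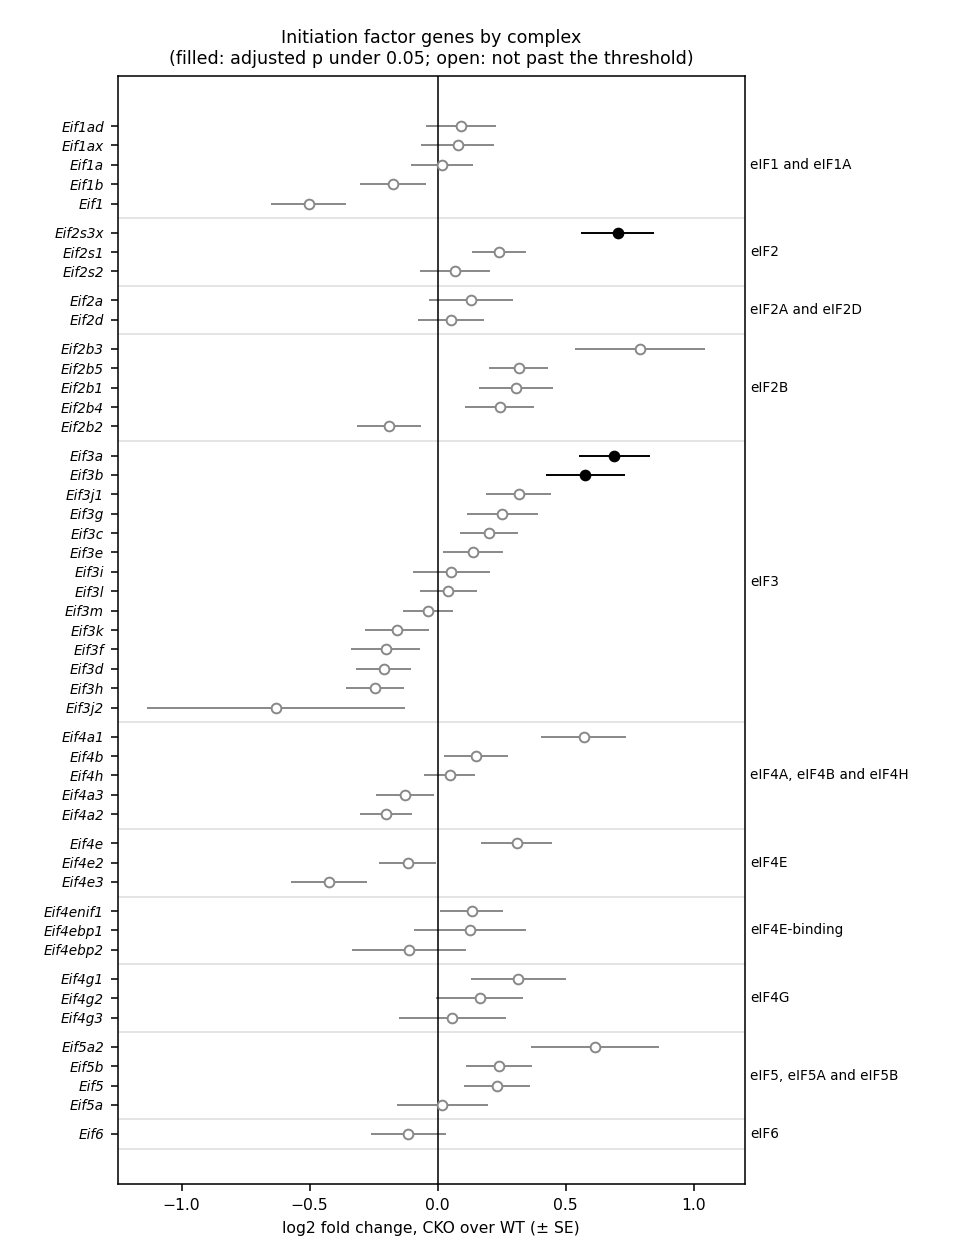
Log2 fold change of CKO over WT (horizontal axis, ± SE, n = 4 libraries each) for the 48 initiation factor genes tested, grouped by complex and sorted within each. Filled points are the 3 genes past the threshold, Eif2s3x, Eif3a and Eif3b; most open points lie within 0.5 of 0, and the lowest is Eif3j2 at -0.63.

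Levels between genes were compared only after division by the gene length in the deposited table, as CPM per kb. Eif5a, which encodes a factor that helps the ribosome over difficult peptide bonds, led in both groups, at 923 CPM per kb in CKO and 911 CPM per kb in WT. Eif1 came next at 366 in CKO and 519 in WT, followed by Eif6 at 252 in CKO and 273 in WT, on the same scale. The lowest of the tested genes were Eif4ebp2, at 0.777 CPM per kb in CKO and 0.84 in WT, and Eif3j2, at 0.696 in CKO and 1.08 in WT. Summed over all members, the level was 9701, 10820, 10100 and 11110 CPM in CKO D146, D149, D163 and D169 and 10070, 10160, 10450 and 9272 CPM in WT D142, D150, D154 and D164. The 2 groups of sums overlapped.

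Of the eIF2 members, Eif2s3x was the gene whose mRNA rose. It encodes a gamma subunit, which holds GTP and the initiator tRNA. This X-linked gene (ENSMUSG00000035150, chrX:94188707-94212862 on the minus strand, mm10) had 26.0, 24.3, 27.4 and 22.5 CPM in CKO D146, D149, D163 and D169, and 13.7, 14.3, 15.2 and 18.3 CPM in WT D142, D150, D154 and D164. All 4 CKO libraries lay above all WT libraries. The log2 fold change was 0.70 ± 0.14 (SE), or 1.63-fold, with an adjusted p of 0.0195 (edgeR, Benjamini-Hochberg). The Y-linked paralog Eif2s3y encodes almost the same subunit, so reads from shared stretches could be assigned to either gene. Its log2 fold change was 0.35 (adjusted p = 0.273), with 42.2, 64.1, 54.4 and 49.95 CPM in CKO and 48.75, 44.9, 46.2 and 25.6 CPM in WT libraries. The sum of both genes was 68.2, 88.4, 81.8 and 72.4 CPM in CKO and 62.5, 59.1, 61.4 and 43.9 CPM in WT libraries. Every CKO sum lay above every WT sum, with means of 77.7 ± 9.10 CPM in CKO and 56.7 ± 8.67 CPM in WT (SD, n = 4 each). A rise past the threshold is stated for the Eif2s3x mRNA alone, as the difference in the sum was not tested.

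The genes of the other eIF2 subunits did not pass the test. Eif2s1, the alpha subunit that the stress kinases phosphorylate, averaged 219 ± 18.3 CPM in CKO and 186 ± 6.92 CPM in WT (SD, n = 4 each; adjusted p = 0.163). Eif2s2, the beta subunit, which contacts eIF5 and eIF2B, had the highest length-scaled level of the complex. It had 289, 347, 307 and 333 CPM in CKO D146, D149, D163 and D169, and 243, 355, 338 and 281 CPM in WT D142, D150, D154 and D164, with the groups mixed (log2 fold change 0.068, adjusted p = 0.787). Eif2a and Eif2d encode proteins that can bring tRNA to the ribosome without eIF2. Eif2a had 16.4, 12.9, 20.7 and 15.8 CPM in CKO and 15.3, 16.6, 13.6 and 14.5 CPM in WT libraries, and Eif2d had 26.2, 29.2, 25.5 and 24.8 CPM in CKO and 29.3, 24.9, 22.6 and 25.3 CPM in WT libraries. Their groups overlapped, with log2 fold changes of 0.13 (adjusted p = 0.635) and 0.051 (adjusted p = 0.83).

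For eIF2B, the exchange factor, 4 of 5 subunit genes had a positive log2 fold change (median 0.31) and 0 of 5 passed the threshold. Eif2b3, the gamma subunit, had the largest value of any member, 0.79 ± 0.25 (SE), with an adjusted p of 0.0723. It had 20.3, 13.75, 27.2 and 34.4 CPM in CKO D146, D149, D163 and D169, and 13.1, 14.15, 17.2 and 10.8 CPM in WT D142, D150, D154 and D164. CKO D149 lay among the WT libraries, and the other 3 CKO libraries lay above them all. It was called without CKO D149 (0.98, adjusted p = 0.0249), and not without any of the other 7 libraries (adjusted p 0.0722 to 0.172). With mean B cell marker level added as a covariate, the log2 fold change was 0.21 (adjusted p = 0.641). CKO D146, D163 and D169 had the highest marker sums of the 8 libraries. CKO D149, at 27.2 CPM, lay within the WT range of 25.6 to 50.2 CPM. Marker level and genotype are therefore only partly separable in that fit, and why the value was lower there was not tested.

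Eif2b5 encodes the epsilon subunit, which carries out the exchange of GDP for GTP. It was singled out here after its values were seen: 72.8, 70.5, 87.0 and 91.3 CPM in CKO D146, D149, D163 and D169 stood above 66.5, 64.7, 64.4 and 62.6 CPM in WT D142, D150, D154 and D164. The difference was small, with a log2 fold change of 0.32 ± 0.12 (SE) and an adjusted p of 0.103. Eif2b2, the beta subunit and the member of eIF2B with the highest length-scaled level, had 68.7, 64.5, 66.1 and 80.1 CPM in CKO and 86.8, 82.4, 84.0 and 65.8 CPM in WT libraries. Its groups overlapped, at -0.19 on the log2 scale (adjusted p = 0.337). Eif2b1 (0.31) and Eif2b4 (0.24) did not pass either, at adjusted p-values of 0.185 and 0.26. With the B cell covariate the log2 fold changes were 0.064 for Eif2b1, -0.30 for Eif2b2, 0.085 for Eif2b4 and 0.18 for Eif2b5. None was called, and the limit given for Eif2b3 applies to them.

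**Figure D2:**
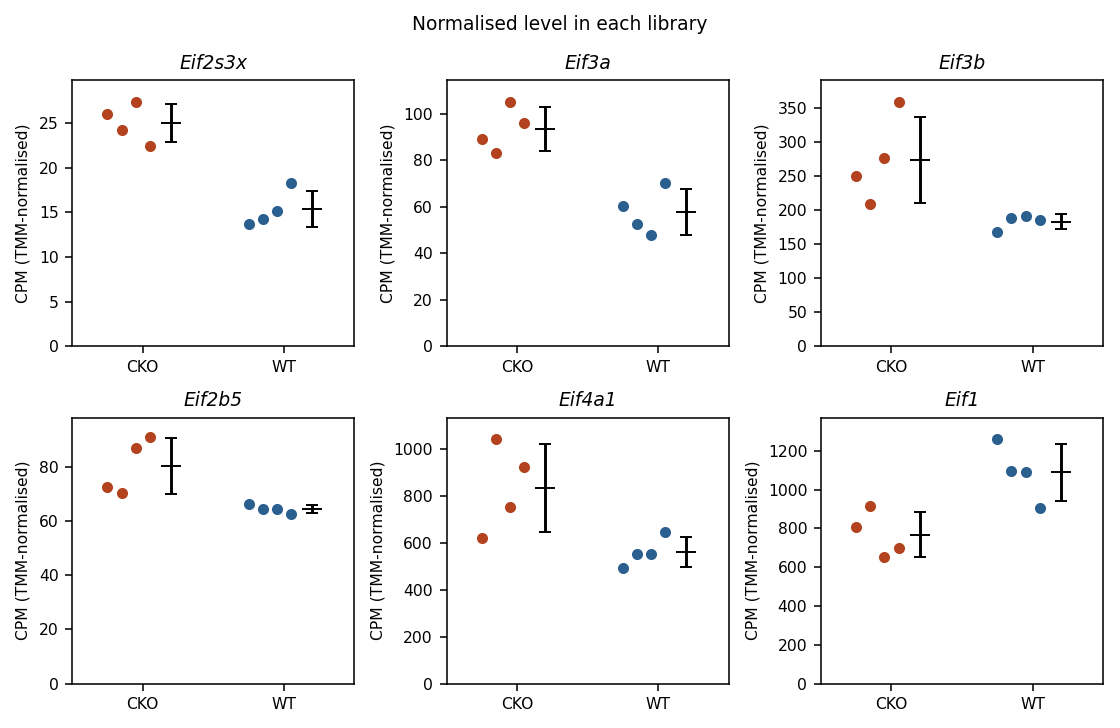
TMM-normalised CPM (vertical axes, from 0) of 6 initiation factor genes in each library, CKO on the left and WT on the right of each panel, in the order D146, D149, D163, D169 and D142, D150, D154, D164. Points are libraries and the black bars are mean ± SD (n = 4 each); the groups do not overlap for Eif2s3x, Eif3a, Eif3b and Eif2b5, and overlap for Eif4a1 and Eif1.

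Within eIF3, 2 of 14 subunit genes rose and 0 fell, where 4.3% of all genes tested were called higher and 4.57% lower. No excess over other genes is read from so small a count. Eif3a encodes the largest subunit, around which the others assemble (ENSMUSG00000024991, chr19:60761116-60790693, minus strand, mm10). It had 89.3, 82.9, 105.0 and 95.8 CPM in CKO D146, D149, D163 and D169, and 60.4, 52.7, 47.7 and 70.25 CPM in WT D142, D150, D154 and D164. No CKO library fell into the WT range. The log2 fold change was 0.69 ± 0.14 (SE), or 1.61-fold, with an adjusted p of 0.0195 (edgeR, Benjamini-Hochberg). Eif3b encodes a subunit at the mRNA entry side of the small subunit (ENSMUSG00000056076, chr5:140419328-140443360, plus strand, mm10). It had 249.4, 209, 276 and 359 CPM in CKO, and 167.5, 188, 191 and 186 CPM in WT libraries. CKO D169 was far above the rest and CKO D149 was the closest to WT, but the groups did not overlap. The log2 fold change was 0.58 ± 0.16 (SE), or 1.49-fold, with an adjusted p of 0.0426 by the same test.

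These genes lost their calls when some single libraries were left out. Without CKO D163, WT D150 or WT D154, the adjusted p was 0.0654 to 0.0777 for Eif2s3x, 0.0654 to 0.0771 for Eif3a and 0.0996 to 0.11 for Eif3b, at log2 fold changes of 0.67 to 0.70, 0.61 to 0.65 and 0.589 to 0.595. Leaving out CKO D146 or CKO D149 left all 3 called. Eif3b was also not called without CKO D169 (0.42, adjusted p = 0.0845), WT D142 (0.54, 0.0993) or WT D164 (0.605, 0.0529). With the B cell markers as a covariate the log2 fold changes were 0.71 for Eif2s3x (adjusted p = 0.0717), 0.63 for Eif3a (0.093) and 0.35 for Eif3b (0.3). No member was called in that fit, where 1.34% of all genes were. As described for Eif2b3, marker level and genotype are only partly separable in it.

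The promoter sequences of the eIF3 genes that rose are shown with that of Eif4a1, the cap-complex helicase described further on. Eif2s3x and Eif1, also past the threshold or close to it, are not shown because the stretch before their RefSeq start runs into the gene as the deposited table places it. The choice was made with the motif matches known. They are the 120 bases before the RefSeq start of Eif3a (chr19:60790694-60790813, minus strand) and of Eif3b (chr5:140419185-140419304, plus strand) and the 250 bases before that of Eif4a1 (chr11:69672424-69672673, minus strand), all GRCm38.p6, written 5′ to 3′ on the gene's strand. Capitals mark CACGTG, the E-box that MYC, MAX and USF proteins can bind, whose first base lies 189 bases before the start of Eif4a1.
Eif3a: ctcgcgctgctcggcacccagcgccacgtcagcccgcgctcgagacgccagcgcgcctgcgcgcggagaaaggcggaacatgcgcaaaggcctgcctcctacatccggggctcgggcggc
Eif3b: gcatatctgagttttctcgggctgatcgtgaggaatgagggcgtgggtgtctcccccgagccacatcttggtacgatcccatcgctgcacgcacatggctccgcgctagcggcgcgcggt
Eif4a1: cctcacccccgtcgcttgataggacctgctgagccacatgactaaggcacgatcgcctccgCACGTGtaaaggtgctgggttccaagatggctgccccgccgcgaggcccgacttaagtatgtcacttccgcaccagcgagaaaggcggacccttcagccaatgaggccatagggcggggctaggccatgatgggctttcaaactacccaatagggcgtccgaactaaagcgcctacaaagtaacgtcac
The table of RefSeq promoters used here held 39 of the 51 members. CACGTG, which reads the same on both strands, was present in the 250 bases before the start of 7 of 39 (17.9%): Eif1b, Eif3f, Eif3k, Eif4a1, Eif4g1, Eif4h and Eif5a2. It was present in 6.02% of all 32851 promoters and in 8.33% of the 11633 promoters of tested genes. CCGGAAG, a core that ETS-family factors can bind, was searched on both strands and found in 10 of 39 (25.6%), against 6.91% of all promoters and 14.0% of those of tested genes; matches to the 2 motifs cannot overlap. Neither was found in the 250 bases before Eif1, Eif2s3x, Eif3a or Eif3b. A match is a string of letters and not a measured binding site.

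The remaining 12 eIF3 subunit genes spread to both sides of 0. The b, g and i subunits, which form a module at the mRNA channel, all had positive log2 fold changes, from 0.054 for Eif3i to 0.58 for Eif3b, with Eif3g at 0.25 (adjusted p = 0.256). Of the 8 subunits with PCI or MPN domains, the structural ring that Eif3a belongs to, 4 were positive and 4 negative, with a median of 0.002. Eif3c, the subunit with the highest length-scaled level, had 394, 346.5, 375.5 and 414 CPM in CKO D146, D149, D163 and D169, and 299, 348, 324 and 361 CPM in WT D142, D150, D154 and D164, so that only CKO D149 and the WT libraries were mixed (log2 fold change 0.20, adjusted p = 0.266). Eif3h, at -0.245 on the log2 scale (adjusted p = 0.175), Eif3d at -0.21 (0.222) and Eif3f at -0.20 (0.349) had negative values under each of the 17 alternative settings tried.

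**Figure D3:**
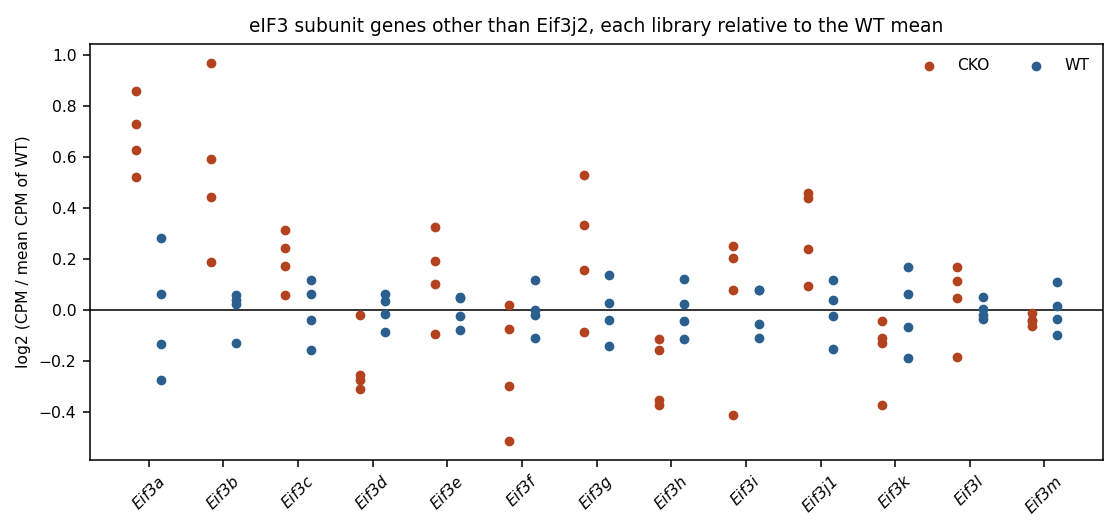
Log2 ratio of each library's CPM to the WT mean (vertical axis) for 13 eIF3 subunit genes, with CKO points left of WT points for each gene. Eif3j2 is left out, as its level was 0.779 to 5.88 CPM. For Eif3a and Eif3b all 4 CKO points lie above all WT points, and for the other 11 genes the groups overlap.

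The loosely bound j subunit has 2 genes in the mouse. Eif3j1 averaged 45.6 ± 5.43 CPM in CKO and 36.6 ± 2.88 CPM in WT (SD, n = 4 each; log2 fold change 0.32, adjusted p = 0.126). Eif3j2, singled out after its values were seen, was near the bottom of the range, with 1.97, 2.15, 1.73 and 0.779 CPM in CKO D146, D149, D163 and D169, and 1.62, 1.45, 5.88 and 1.32 CPM in WT D142, D150, D154 and D164 (log2 fold change -0.63 ± 0.50, adjusted p = 0.436). The pair is close in sequence, so the split of reads between them is uncertain, and the higher WT mean rests on WT D154 alone. Summed over all 14 genes, eIF3 stood at 1486, 1261, 1518 and 1599 CPM in CKO libraries and 1286, 1284, 1293 and 1298 CPM in WT libraries. The WT sums lay close together and the CKO sums did not, with CKO D149 below all WT libraries and the other 3 above.

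Among the factors that judge the start codon, Eif1 was lower in CKO without passing the threshold. eIF1 keeps the scanning ribosome from settling on a poor start codon. Eif1 had 805, 917, 653 and 699 CPM in CKO D146, D149, D163 and D169, and 1263, 1096, 1090.0 and 906.5 CPM in WT D142, D150, D154 and D164. CKO D149 and WT D164 overlapped, and the other CKO libraries lay below every WT library. The log2 fold change was -0.50 ± 0.15 (SE) with an adjusted p of 0.054 (edgeR, Benjamini-Hochberg), and 0.0153 in DESeq2. It was called lower without CKO D149 (adjusted p = 0.0307) or WT D164 (0.0365), and not without any of the other 6 libraries (0.0656 to 0.16), with the GC and length offset (-0.41, 0.0924) or with the B cell covariate (-0.39, 0.243). In all it was called in 5 of 17 alternative settings. Its paralog Eif1b, at 20.2 ± 1.79 CPM in CKO and 22.8 ± 1.73 CPM in WT, had -0.17 (adjusted p = 0.399). The eIF1A genes Eif1a and Eif1ax, whose product works with eIF1 on the small subunit, had log2 fold changes of 0.018 and 0.078, and Eif1ad, which shares the eIF1A fold, had 0.091; all 3 had adjusted p-values of 0.697 or more.

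eIF5 switches eIF2 to GDP when the start codon is found and, unlike eIF1, relaxes the choice of codon. Eif5 averaged 583 ± 79.9 CPM in CKO and 496 ± 38.5 CPM in WT (SD, n = 4 each), a log2 fold change of 0.23 (adjusted p = 0.254). Divided by length, the ratio of Eif1 to Eif5 was 5.18, 4.30, 3.81 and 3.96 in CKO D146, D149, D163 and D169, and 8.95, 7.39, 7.17 and 5.36 in WT D142, D150, D154 and D164. Every CKO ratio was lower than every WT ratio, with means of 4.31 ± 0.615 in CKO and 7.22 ± 1.47 in WT (SD, n = 4 each). The ratio of Eif1 to its paralog Eif1b did not overlap either, at 16.9 to 22.3 in CKO and 23.9 to 28.2 in WT. A lower ratio was thus not particular to the pair with Eif5. These ratios and those below were chosen after the values were seen and were not tested.

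Within the cap-binding complex, the helicase gene Eif4a1 came closest to the threshold. eIF4A1 unwinds the mRNA leader during scanning. Eif4a1 (chr11:69666936-69672423, minus strand, mm10) had 620.1, 1044, 752 and 926 CPM in CKO D146, D149, D163 and D169, and 494, 553, 555 and 648 CPM in WT D142, D150, D154 and D164. CKO D146 lay below WT D164 and the other 3 CKO libraries lay above every WT library. The log2 fold change was 0.57 ± 0.17 (SE), with an adjusted p of 0.0529 (edgeR, Benjamini-Hochberg); it was 0.0246 in DESeq2, 0.0187 without CKO D146 and 0.0415 without WT D164. Without any of the other 6 libraries it was not called (0.0857 to 0.14), nor with the GC and length offset (0.49, 0.0843), and in all it was called in 7 of 17 alternative settings. The exons of this gene overlap small RNA genes, Gm22988 and Gm24029, and no source used here gives the counting rule for such overlaps.

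The paralog Eif4a2 had the opposite sign. It was singled out after its values were seen, with 88.9, 96.0, 91.2 and 80.2 CPM in CKO D146, D149, D163 and D169, all below 99.65, 103, 103 and 104 CPM in WT D142, D150, D154 and D164. Its log2 fold change was -0.20 ± 0.10 (SE), with an adjusted p of 0.219. The length-scaled ratio of Eif4a1 to Eif4a2 was 8.59, 13.4, 10.2 and 14.2 in CKO and 6.10, 6.64, 6.64 and 7.66 in WT libraries, again without overlap. Reads from stretches shared by the paralogs cannot be assigned with certainty, and exons of Eif4a2 also overlap the antisense gene Rfc4 and small RNA genes such as Snora81 and Snord2. Eif4a3, a helicase of the exon junction complex despite its name, and the helper genes Eif4b and Eif4h had log2 fold changes of -0.13, 0.15 and 0.047, at adjusted p-values of 0.457 or more.

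**Figure D4:**
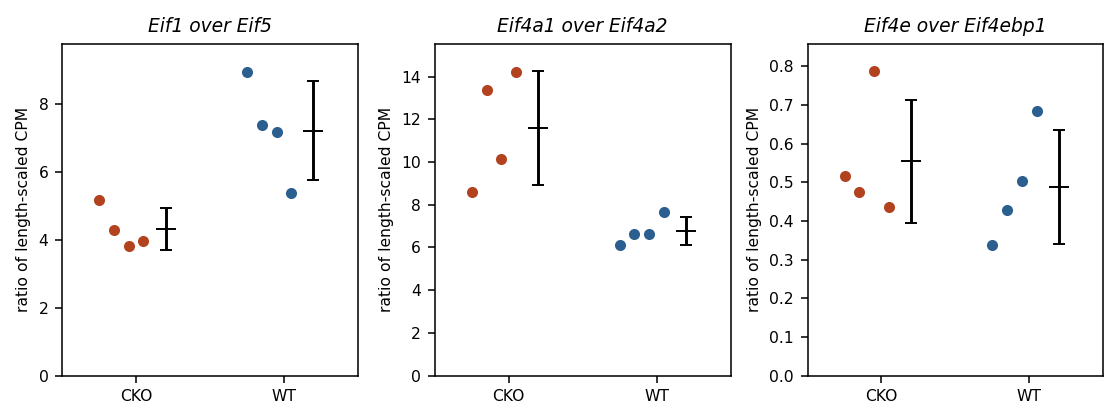
Ratios of length-scaled CPM (vertical axes, from 0) for 3 pairs of initiation factor genes in each library, CKO left and WT right; black bars are mean ± SD (n = 4 each). Eif1 over Eif5 is 3.81 to 5.18 in CKO and 5.36 to 8.95 in WT, Eif4a1 over Eif4a2 is 8.59 to 14.2 in CKO and 6.10 to 7.66 in WT, and Eif4e over Eif4ebp1 overlaps.

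The cap-binding proteins split by gene. Eif4e, the main cap-binding factor and the limiting one in many cells, had 197, 207, 258 and 288 CPM in CKO D146, D149, D163 and D169, and 179, 184, 195.5 and 209 CPM in WT D142, D150, D154 and D164. CKO D163 and D169 were above all WT libraries and the other CKO libraries were not (log2 fold change 0.31 ± 0.14, adjusted p = 0.166). Eif4e3, an atypical member of the family, had 38.8, 45.7, 36.9 and 39.7 CPM in CKO and 42.5, 60.55, 64.1 and 48.7 CPM in WT libraries. CKO D149 alone reached the WT range (-0.42 ± 0.15, adjusted p = 0.0903). Eif4e2, which binds caps without recruiting eIF4G, averaged 155 ± 10.6 CPM in CKO and 168 ± 15.3 CPM in WT (-0.12, adjusted p = 0.519).

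The proteins that hold eIF4E back showed no called difference. Eif4ebp1, the mTORC1 target that releases eIF4E when phosphorylated, had 139, 159, 120 and 241 CPM in CKO D146, D149, D163 and D169, and 193, 157, 142.1 and 112 CPM in WT D142, D150, D154 and D164. CKO D169 was above every other library and CKO D163 was among the lowest (log2 fold change 0.13 ± 0.22, adjusted p = 0.74). The length-scaled ratio of Eif4e to Eif4ebp1 was 0.554 ± 0.159 in CKO and 0.488 ± 0.147 in WT, with overlap. Eif4enif1, which carries eIF4E to the nucleus and to P-bodies, had 64.0, 50.8, 52.45 and 60.1 CPM in CKO and 44.4, 55.5, 55.2 and 52.3 CPM in WT libraries (0.13, adjusted p = 0.514). Eif4ebp2 stayed at 3.36 to 5.21 CPM in CKO and 4.05 to 6.22 CPM in WT.

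For the eIF4G scaffolds, which tie eIF4E, eIF4A and eIF3 together, all 3 log2 fold changes were above 0 and none was called. Eif4g1 had 90.8, 59.85, 76.4 and 57.7 CPM in CKO D146, D149, D163 and D169, and 44.4, 53.9, 56.0 and 74.5 CPM in WT D142, D150, D154 and D164 (0.32 ± 0.19, adjusted p = 0.281). WT D164 was the library that reached into the CKO range. Eif4g2, also called DAP5, lacks the eIF4E site; it had 965, 940, 930 and 690 CPM in CKO and 612, 747, 769 and 1017 CPM in WT libraries. Its single low CKO value, in D169, and its single high WT value, in D164, crossed over (0.16 ± 0.17, adjusted p = 0.555). Eif4g3 averaged 20.2 ± 3.13 CPM in CKO and 19.4 ± 5.74 CPM in WT.

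Of the late factors, none passed. Eif5a, the most abundant member, had 1853, 2220, 2083 and 2624 CPM in CKO D146, D149, D163 and D169, and 2304, 2346, 2518 and 1495 CPM in WT D142, D150, D154 and D164 (log2 fold change 0.019, adjusted p = 0.957). The highest library was CKO D169 and the lowest WT D164, with the rest mixed. Its paralog Eif5a2 had 20.9, 18.6, 27.85 and 20.7 CPM in CKO and 7.34, 16.85, 14.7 and 18.5 CPM in WT libraries. These did not overlap, though CKO D149 and WT D164 almost touched, and the log2 fold change of 0.61 ± 0.25 had an adjusted p of 0.134. Eif5b, the GTPase that joins the subunits, averaged 40.9 ± 3.002 CPM in CKO and 34.6 ± 4.41 CPM in WT (0.24, adjusted p = 0.239). Eif6, which keeps the large subunit from joining too early, had 610.3, 729, 607 and 779 CPM in CKO and 803, 766, 809 and 573 CPM in WT libraries, with overlap (-0.115, adjusted p = 0.64).

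Low-input cDNA amplification can depend on GC content and length, but the cause of the trends given here was not tested. Across all 11689 genes with a GC value the log2 fold changes followed both (Spearman -0.303 with GC content and 0.269 with length). Across the 48 members these values were -0.149 and 0.367, over transcripts of 36.2% to 57.9% GC; genes measured in the same libraries are not independent. After each library's own trend in GC content and length was removed through an offset, Eif2s3x (0.60, adjusted p = 0.0253), Eif3a (0.56, 0.0267) and Eif3b (0.745, 0.0182) were again called (edgeR, Benjamini-Hochberg). With the offset, 3 more genes were called higher: Eif3g (0.48, 0.0345), Eif2b5 (0.43, 0.035) and Eif2b4 (0.48, 0.0421), whose transcripts have 55.8%, 53.2% and 56.8% GC. Eif4a2, at 40.2% GC, was called lower (-0.36, 0.0415). That made 6 members higher and 1 lower of 48, where 9.26% of all genes were called in this fit, 3.85% higher and 5.41% lower. After the offset the Spearman values were 0.033 with GC content and -0.018 with length over all genes, and 0.306 and -0.103 over the members. The members' median was then 0.021, with 27 of 48 above 0, and the median of all genes was 0.016. All 5 eIF2B genes were above 0 in that fit, with a median of 0.43. In the fit with the B cell covariate, 4 of 5 were above 0, with a median of 0.085. Eif3g had 0.005 there (adjusted p = 0.989, edgeR, Benjamini-Hochberg). Exons of Eif2b4 overlap those of the antisense gene Snx17, so reads of the pair may not be separable where the strand setting is unknown.

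**Figure D5:**
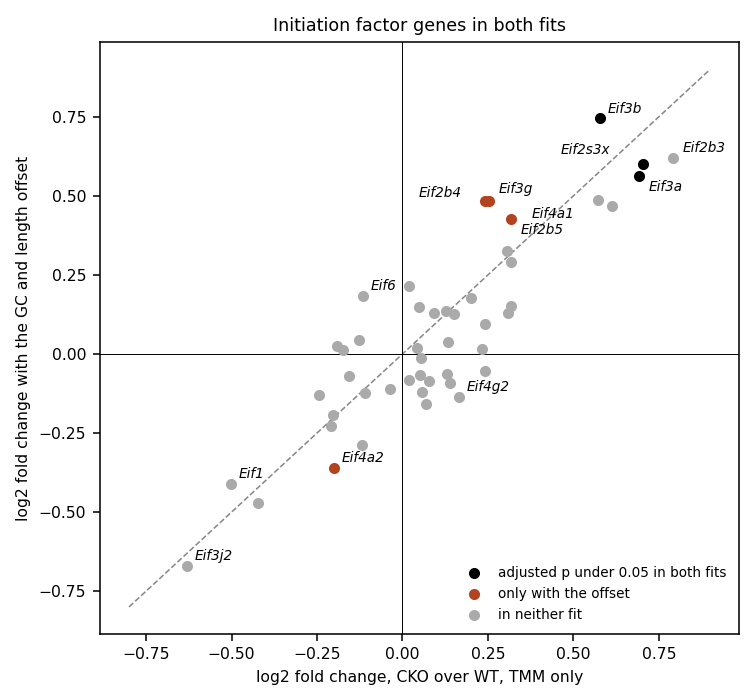
Log2 fold change of CKO over WT for the 48 tested genes, with TMM only (horizontal axis) and with the GC and length offset (vertical axis); the dashed line marks equality and the axes cross at 0. Black points (Eif2s3x, Eif3a and Eif3b) were called in both fits, red points (Eif3g, Eif2b4, Eif2b5 and Eif4a2) with the offset alone, and gray points in neither.

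The genes around the factors were taken from lists of the same pathway. Among 8 genes of the eIF2alpha kinases and phosphatases, 0 were called in either direction, where 8.87% of all genes tested were. Of these, Eif2ak2 and Ppp1r15a were singled out after their values were seen. Eif2ak2, the interferon-induced kinase PKR, had 58.3, 108, 79.6 and 79.4 CPM in CKO D146, D149, D163 and D169, and 68.5, 56.4, 58.8 and 61.3 CPM in WT D142, D150, D154 and D164 (0.41, adjusted p = 0.134). Ppp1r15a, the phosphatase subunit GADD34 that undoes eIF2alpha phosphorylation, averaged 856 ± 174 CPM in CKO and 1141 ± 136 CPM in WT (-0.415, adjusted p = 0.123).

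Of 19 tested partners at the cap, the poly(A) tail and in scanning, 3 rose and 0 fell, while 8.87% of all genes were called. Larp4, a poly(A)-binding protein that stabilises mRNA, had 53.8, 67.9, 91.75 and 80.55 CPM in CKO D146, D149, D163 and D169, and 19.7, 25.1, 24.9 and 41.0 CPM in WT D142, D150, D154 and D164, without overlap (1.41 ± 0.23, adjusted p = 0.0116 (edgeR, Benjamini-Hochberg)). The scanning helicase gene Dhx29 averaged 21.95 ± 1.99 CPM in CKO and 11.5 ± 2.87 CPM in WT (0.93 ± 0.18, adjusted p = 0.0187). The helicase gene Ddx3x averaged 84.65 ± 10.8 CPM in CKO and 61.1 ± 5.58 CPM in WT (0.47 ± 0.12, adjusted p = 0.0398), and shares sequence with its Y-linked paralog.

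For the lists below, 8.87% of all genes tested were called in either direction, so no excess is read from their counts. In the steps after initiation, 1 of 7 recycling and termination genes rose. This was Abce1, the ATPase that splits ribosomes after termination, with 57.7, 54.75, 74.2 and 83.3 CPM in CKO D146, D149, D163 and D169, and 24.0, 28.5, 31.5 and 37.5 CPM in WT D142, D150, D154 and D164 (1.15 ± 0.175, adjusted p = 0.0113 (edgeR, Benjamini-Hochberg)). Of 10 elongation genes, 1 fell: Eef1a1, which delivers aminoacyl-tRNAs, at 807 ± 115 CPM in CKO and 1140 ± 79.4 CPM in WT (-0.50 ± 0.13, adjusted p = 0.039). Of 11 genes of mTORC1 and its regulators, 1 fell: Deptor, an mTOR inhibitor, at 0.196 ± 0.115 CPM in CKO and 0.709 ± 0.102 CPM in WT, a level of few reads (-1.78 ± 0.45, adjusted p = 0.0344). Of 7 mitochondrial initiation and elongation genes, 0 were called, with a median of 0.098. Larp4 and Abce1 were called whichever of the 8 libraries was left out, though narrowly in places. Their largest adjusted p-values there were 0.0448 for Abce1 and, for Larp4, a value that rounds to the threshold of 0.05 (edgeR, Benjamini-Hochberg). Dhx29 was not called without CKO D163, WT D150 or WT D154, Ddx3x and Deptor without any of these or CKO D169 or WT D142, and Eef1a1 without any of those 5 or CKO D149. With the GC and length offset, where 9.26% of all genes were called, Ddx3x was not called (0.32, adjusted p = 0.0894). Pabpc1, a poly(A)-binding protein gene, was called lower (-0.57, 0.0276), which made 2 higher and 1 lower among the 19 cap, poly(A) and scanning partners. Among the elongation genes, Eefsec (0.57, 0.0401) and Dohh (0.82, 0.0305) were then called higher beside Eef1a1 lower (-0.50, 0.0485). With the B cell marker covariate 0 genes of these lists were called, where 1.34% of all genes were. Abce1 then had 1.01 (adjusted p = 0.054) and Larp4 1.44 (adjusted p = 0.0504).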

How the data were processed

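Per the labels' protocols, polyA RNA was copied with a SMART-Seq v4 low-input kit, and a Vazyme kit made the libraries. The submitters' processing notes name HISAT2 (2.2.1), fastp (0.23.2) and mm10. The counting program, annotation and strand setting are not stated in the labels or headers, so reads of overlapping or near-identical genes may be shared. The authors deposited whole-number counts per gene without normalization, with positions and lengths per the file headers.

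Groups came from the titles. No 2 libraries were copies (smallest chi-square per degree of freedom of any pair 43.09). No batch is given. Fold changes are CKO over WT. The test was edgeR 4.0.16 in R 4.3.3 on all 8 libraries: filterByExpr by group, TMM, robust quasi-likelihood F test, Benjamini-Hochberg over 11702 genes, threshold 0.05; the SE is the log2 fold change divided by the square root of F. The test was also run on simulated counts. These lack the GC, length and marker differences between the libraries, so nothing about the calls is read from that run. Of the table's IDs, 30934 were found in GENCODE M21, including all 51 members; it supplied GC content (99.9% of genes tested) and exon overlaps. The offset used natural splines with 5 degrees of freedom. Promoters were RefSeq's.

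The members, lists and tests were chosen with earlier results of these data known. Library values are given for members past the threshold and, in each complex, for the one with the highest length-scaled level and the one with the largest absolute log2 fold change; others singled out are said to be so. Alternatives were scaling by RLE, upper quartile or total counts, no filter on low counts, a filter at a mean of 5 CPM, limma-voom 3.58.1, DESeq2 1.42.0, a B cell marker covariate (mean log2 CPM, prior count 2), the offset, and leaving out each library.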

Additional observations from a re-analysis of the deposited data

Results flagged for a closer look

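In 96 groups of 4 libraries (48 genes in each genotype), 2 values lay apart from the other 3 by more of the group's range than Dixon's critical ratio for 4 values, a gap that chance gives in about 1 group in 20. Eif3j2, the second gene of the eIF3 j subunit, had 5.881 CPM in WT D154 and 1.316 to 1.617 CPM in the other WT libraries, a gap of 0.934 of the range. Eif4g2, the gene of the eIF4G-like factor DAP5, had 690.0 CPM in CKO D169 and 929.8 to 965.4 CPM in the other CKO libraries, a gap of 0.871 of the range.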

How the results depend on the processing

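The count of initiation factor genes called, 3 in the test as reported, was 6 with DESeq2, 7 with the GC and length offset, 7 with total-count scaling, 5 with a mean of at least 5 CPM and 0 with the B cell marker covariate; leaving out 1 library gave 0 (CKO D163, WT D150 or WT D154) to 5 (CKO D149). Eif2s3x, Eif3a and Eif3b were among the genes called under each scaling, filter and tool. Over all genes the count was 1038 of 11702, where 3 of 48 members were called. It was 1975 with DESeq2 (16.4%), 1084 with the offset (9.26%) and 157 with the covariate (1.34%). With a mean of at least 5 CPM, 1041 of 8242 genes and 5 of 46 members were called. Leaving out 1 library gave 70 to 1468 genes (70 without CKO D163, 82 without WT D150, 138 without WT D154, 347 without WT D142, 457 without CKO D169). Total-count scaling gave 1391 of 11702 genes (1080 higher and 311 lower, against 503 and 535), 7 of 48 members and a members' median of 0.253. No excess over other genes is read from the members' counts. Of the genes followed through the alternatives, those that changed sign were uncalled: with the offset Eif2a (-0.064), Eif2b2 (0.024), Eif2d (-0.066), Eif2s2 (-0.159), Eif4g2 (-0.135) and Eif6 (0.184); with the covariate Eif2a (-0.094) and Eif5a (-0.050); with total-count scaling Eif6 (0.049); and without 1 library Eif2d (-0.004 to 0.123), Eif2s2 (-0.027 to 0.15), Eif4ebp1 (-0.114 to 0.277) and Eif5a (-0.101 to 0.098). The cause was not tested. Across all 17 settings 19 tested members were above 0 in each, 6 were below 0 in each and 23 changed sign. No paired analysis was possible because the genotypes share no library number. Totals of 25304765 counts or more limit abundant members little. The lowest tested members had 21 to 199 reads in a library (Eif3j2) and 115 to 175 (Eif4ebp2), and the untested genes had 0 to 8.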
